A study of Bos taurus with 14 samples.

Results

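Glycolysis splits glucose into pyruvate and yields ATP without oxygen; lactate dehydrogenase turns the pyruvate into lactate, which carriers in the cell membrane export. Cultured pluripotent cells are known for high glucose use, and many of these genes are textbook targets of the transcription factor HIF1, which acts when oxygen is scarce. The genes described here were chosen by name: the glucose importer SLC2A1, the enzymes HK2, GPI, PFKM, TPI1, PGK1, ENO1 and LDHA, the regulatory enzyme PFKFB3 and the lactate exporter SLC16A3. Of the 10 symbols, 9 were found among the 23159 features of one set of files and the 24616 of the other. ENO1 was not analysed here, because no row carried that symbol.

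Total RNA of 14 cattle samples was sequenced. Embryonic stem cells (bESC) of 2 lines, A and B, had been derived from blastocysts and grown on mouse embryonic fibroblast feeders in CTFR medium, whose base holds no FGF2 or TGFb, with human FGF2 and IWR1 added, a WNT pathway inhibitor. Line A was sampled at passages (P) 10, 13, 23, 35 and 45 and line B at passages 10, 12, 24, 35 and 46. The controls were 2 pools of 10 whole blastocysts, with the sample titles naming them in vivo, and 2 lines of skin fibroblasts. Passages of a line are serial samples of 1 culture, so each line is 1 derivation, and the p-values cover only how these samples vary. No genotype, age or sex of the animals was given in the sources used here.

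Levels are RPKM, reads scaled by gene length and by the mapped reads of the library, so they can be compared between genes within a library. Summed RPKM ran from 349527 to 435754 in the 6 control and P10 libraries, and from 475822 to 501373 in the 8 later ones, which were deposited with another feature list. The 2 most abundant features held 65.8% and 64.0% of the summed RPKM in the blastocyst pools and 2.1% to 3.4% in every other library. Depth in reads is unknown; relative depth, read from the steps of low values, ranged from 1.0 to 1.558 within the first set and from 0.707 (line A at P35) to 1.028 within the second. Summed marker levels fitted the labels. The 9 fibroblast markers summed to 5761 and 6106 RPKM in the fibroblasts, 109 and 225 in bESC at P10 and 214 to 345 in later bESC. In the blastocyst pools they summed to 2.68 and 3.17. The 7 pluripotency markers summed to 815 and 673 at P10 against 0.627 and 2.16 in the fibroblasts. POSTN, a fibroblast marker, did not follow its sum, at 4.43 to 29.5 RPKM in later bESC against 1.59 and 11.1 in the fibroblasts. Whether feeder or differentiated cells gave part of the bESC levels was not tested. In bulk RNA, fewer cells of a type and less RNA per cell cannot be told apart. The blastocyst pools also hold trophectoderm, whose 7 markers summed to 922 and 635 RPKM there. Most of that sum was KRT8 (473 and 306) and KRT18 (414 and 297), while CDX2 was 13.8 and 15.9. TFAP2A and ELF3 of the same list were below 1 RPKM in the pools, and TFAP2A was 12.0 and 21.3 in the fibroblasts.

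The plot of all members by library shows 3 kinds of level. LDHA, TPI1, PGK1 and GPI were the abundant members in fibroblasts and later bESC, above 100 RPKM in each of those libraries. SLC2A1 and HK2 were higher in blastocysts than in fibroblasts, while PFKM and PFKFB3 were below 1 RPKM in the blastocyst pools. SLC16A3 was below 1 RPKM in all 6 libraries of the first set.

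**Figure D1:**
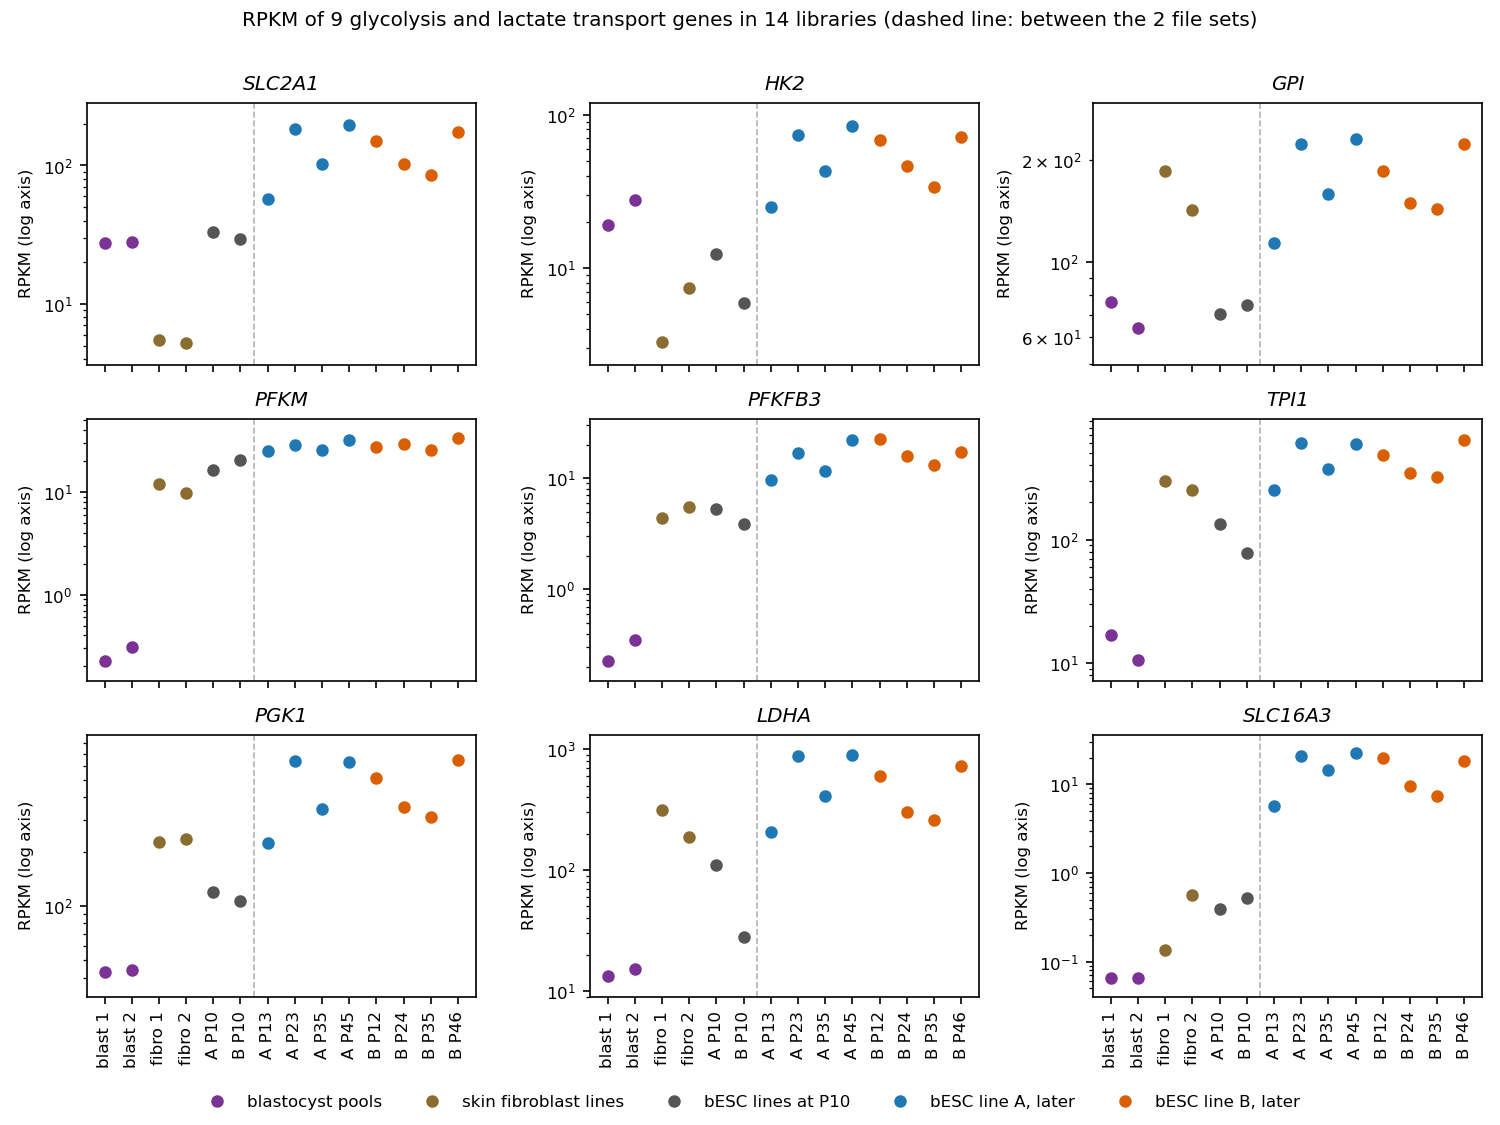
RPKM (log axis) of the 9 glycolysis and lactate transport genes in each of the 14 libraries, 1 point per library, with a dashed line between the file sets. All 8 later bESC libraries lie above both P10 libraries for each gene, and the later values go up and down together, lowest in line A at P13.

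SLC2A1 (GLUT1), which brings glucose into the cell, stood at 27.4 and 28.0 RPKM in the blastocyst pools, 5.45 and 5.24 in the fibroblast lines, and 33.0 and 29.5 in lines A and B at P10. The P10 and blastocyst libraries all exceeded both fibroblast lines. In later line A it was 57.4, 185, 102 and 197 RPKM at P13, P23, P35 and P45. In later line B it was 150, 103, 85.0 and 174 RPKM at P12, P24, P35 and P46. The lowest of these later values was still above every library of the first set.

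HK2, the hexokinase isoform that traps glucose as glucose 6-phosphate, was 19.2 and 27.8 RPKM in blastocysts, 3.32 and 7.39 in fibroblasts, and 12.4 and 5.93 at P10. The P10 libraries lay between the other groups and overlapped the fibroblasts. Later line A gave 25.0, 73.2, 43.1 and 84.4 RPKM in order of passage, and later line B 68.4, 45.9, 33.5 and 71.2.

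GPI converts glucose 6-phosphate to fructose 6-phosphate. It was 76.3 and 63.8 RPKM in blastocysts, 185 and 142 in fibroblasts, and 70.4 and 74.6 at P10. Fibroblasts were above the other groups of the first set, and the P10 values lay inside the range of the blastocysts. The later libraries spanned 114 to 230 RPKM, with a median of 172.

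PFKM is a subunit of phosphofructokinase, which commits sugar to glycolysis. It was 0.224 and 0.309 RPKM in blastocysts, 11.9 and 9.73 in fibroblasts, and 16.3 and 20.6 at P10, so the 3 groups did not overlap. Its later range was narrow, 25.3 to 33.4 RPKM with a median of 28.0. PFKFB3 makes fructose 2,6-bisphosphate, an activator of phosphofructokinase; it was 0.228 and 0.351 RPKM in blastocysts, 4.38 and 5.45 in fibroblasts and 5.3 and 3.85 at P10. Here the P10 and fibroblast values overlapped. Later PFKFB3 ran from 9.55 to 22.6 RPKM, with a median of 16.3.

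TPI1 interconverts the triose phosphates. It was 17.1 and 10.7 RPKM in blastocysts, 299 and 251 in fibroblasts, and 133 and 77.9 at P10. PGK1, the first enzyme of the pathway to yield ATP, was 43.1 and 44.2 RPKM in blastocysts, 225 and 236 in fibroblasts, and 119 and 107 at P10. For both genes the order was fibroblasts, P10, blastocysts, with no overlap. Later TPI1 spanned 251 to 641 RPKM (median 428), and later PGK1 223 to 648 (median 431), with line A at P13 alone among later libraries inside or below the fibroblast range.

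LDHA, the lactate dehydrogenase subunit of glycolytic tissues, was 13.3 and 15.3 RPKM in blastocysts, 315 and 187 in fibroblasts, and 111 and 27.8 at P10. Lines A and B differed at P10 more for LDHA than for any other tested member, but neither reached a fibroblast value. Later line A gave 207, 875, 414 and 888 RPKM, and later line B 597, 301, 259 and 729. SLC16A3, a carrier that exports lactate, was 0.066 and 0.065 RPKM in blastocysts, 0.136 and 0.567 in fibroblasts, and 0.397 and 0.523 at P10. Later line A then gave 5.68, 20.7, 14.5 and 22.5 RPKM and later line B 19.6, 9.68, 7.36 and 18.4. How reads shared with near-identical gene copies, such as those of PGK1, LDHA and TPI1, were counted is not given in the sources used here.

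The first comparison asks how bESC at P10 differ from a differentiated cell type. SLC2A1 and PFKM rose against fibroblasts, and GPI, TPI1, PGK1 and LDHA fell. Of the 8 members with enough signal to test (SLC16A3 was too low), 2 were called higher, 4 lower and 2 in neither direction. Among all 11761 genes tested, 57.3% were called, 35.4% higher and 21.9% lower, so a count of 6 of 8 is read against a background above 1 in 2. The call was an adjusted p under 0.05 in limma, fitted on log2(RPKM + 1). In the 3 comparisons among blastocysts, fibroblasts and P10 bESC, each change is given as the distance from the median gene, which in this comparison stood at 0.23 on that log2 scale, and the p-values test the change before this subtraction.

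SLC2A1 was higher at P10 by 2.11 ± 0.16 (SE, 2 libraries a group; limma adjusted p = 8.27e-05). The 4 members that fell were LDHA at -2.33 ± 0.60 (adjusted p = 0.0231), TPI1 at -1.65 ± 0.32 (adjusted p = 0.00909), GPI at -1.38 ± 0.20 (adjusted p = 0.00308) and PGK1 at -1.26 ± 0.16 (adjusted p = 0.00194). PFKM was higher by 0.48 ± 0.22 (adjusted p = 0.028). HK2 and PFKFB3 were not called, at 0.45 ± 0.43 and -0.32 ± 0.22 (adjusted p = 0.221 and 0.748). The PFKM call was lost under median-of-ratios scaling (adjusted p = 0.132) and without fibroblast line 2 or line B at P10 (0.114 and 0.132). The LDHA call was lost without fibroblast line 1 (0.111) and with no filter on low values (0.0596), and its change ran from -3.22 without line A at P10 to -1.24 without line B at P10. Median-of-ratios scaling gave 3021 genes higher and 2908 lower, against 4160 and 2576 as deposited.

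Against blastocysts, PFKM, PFKFB3, TPI1, PGK1 and LDHA were called higher at P10 and HK2 lower, again of 8 tested; SLC2A1 and GPI were not called. Here 80.3% of all genes were called, 73% higher and 7.33% lower, and the median gene stood at 1.43. Relative to it, PFKM was higher by 2.50 ± 0.22 (limma adjusted p = 1.64e-05), TPI1 by 1.39 ± 0.32 (2.18e-04) and PFKFB3 by 0.67 ± 0.22 (1.63e-04). These 3 stayed higher under each scaling tried. HK2 was lower by 2.75 relative to the median gene, a value of -2.75 ± 0.43 (adjusted p = 0.0265); the call was lost without blastocyst pool 2 (0.137) or line B at P10 (0.14).

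PGK1 at -0.08 ± 0.16 and LDHA at 0.47 ± 0.60 moved with the median gene, and their calls (adjusted p = 2.69e-04 and 0.0235) were lost when the 2 most abundant features were left out of the scaling (0.929 and 0.407). SLC2A1 at -1.26 ± 0.16 and GPI at -1.37 ± 0.20 were not called as deposited (0.372 and 0.813) but were called lower under that scaling (0.00133 and 9.58e-04). Over all genes it gave 5244 higher and 2535 lower, against 8583 and 862 as deposited, and median-of-ratios scaling gave 4050 and 3495. Among the members, median-of-ratios scaling called 3 higher (PFKM, PFKFB3 and TPI1) and 4 lower (HK2, SLC2A1, GPI and PGK1). PGK1 thus turned from called higher to called lower, and LDHA was not called there (limma adjusted p = 0.837).

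Blastocysts were also set against fibroblasts. SLC2A1 and HK2 were called higher in blastocysts and the other 6 tested members lower; 74.4% of all genes were called, 11% higher and 63.4% lower. Relative to the median gene, at -1.15, SLC2A1 was higher by 3.33 ± 0.16 (limma adjusted p = 4.52e-05) and HK2 by 3.16 ± 0.43 (adjusted p = 0.005). The largest falls were TPI1 at -3.09 ± 0.32 (4.57e-05), LDHA at -2.84 ± 0.60 (9.10e-04) and PFKM at -2.07 ± 0.22 (3.06e-05). PGK1 stood at -1.22 ± 0.16 and PFKFB3 at -1.04 ± 0.22 (3.12e-05 and 1.51e-04). GPI, called lower as deposited (0.00144), was at -0.05 ± 0.20 relative to the median gene and at 0.40 under median-of-ratios scaling, where it was not called (0.164). That scaling gave 3731 genes higher and 4176 lower, against 1289 and 7457 as deposited. The 3 comparisons share libraries, so they are not independent of each other.

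**Figure D2:**
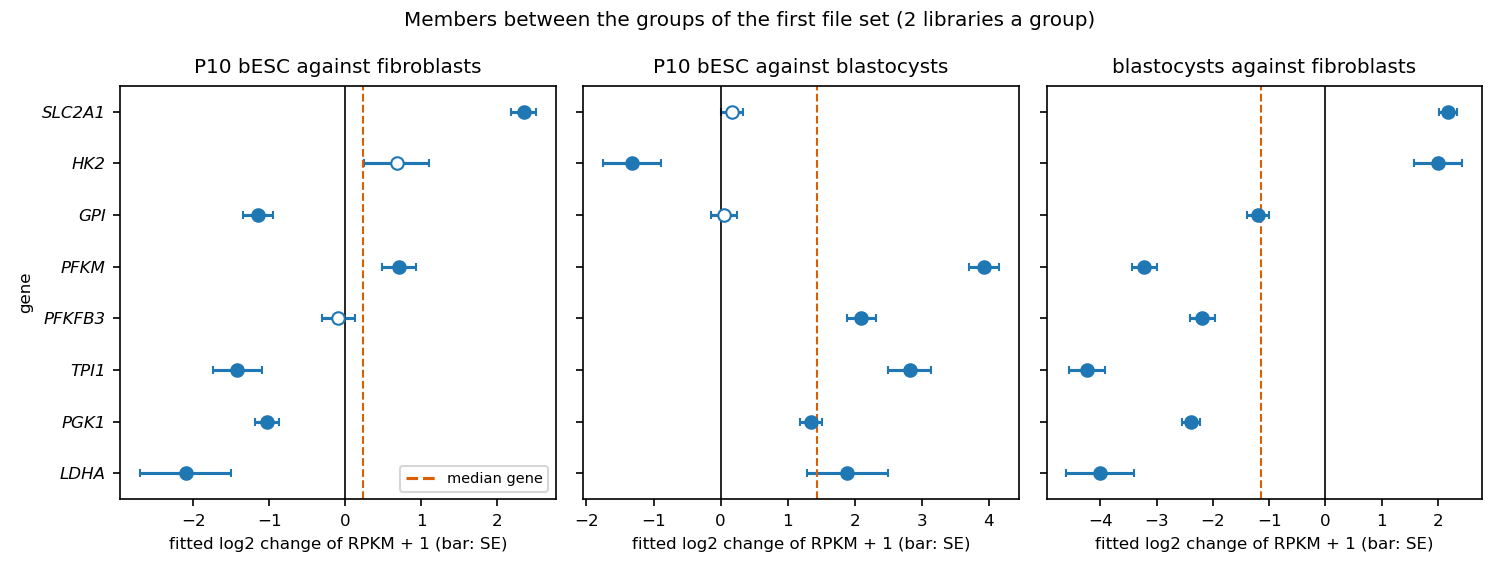
Fitted change of log2(RPKM + 1) with its SE for the 8 tested members in the 3 comparisons of the first file set, 2 libraries a group; filled points were called, open points were not, and the dashed line is the median gene (0.23, 1.43 and -1.15). SLC2A1 lies far to the right of the median gene against fibroblasts in both tests, and TPI1, PGK1 and LDHA lie to its left.

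Other genes of the same pathway moved both ways. Of 28 tested glycolysis and pyruvate genes outside the list, 6 rose and 7 fell at P10 against fibroblasts (3 and 8 under median-of-ratios scaling), and the median of the list stood at -0.42 on this relative scale. The 2 with the smallest adjusted p fell: MPC1, part of the mitochondrial pyruvate carrier, at -2.67 (4.06e-04) and ADPGK, a glucokinase that uses ADP, at -2.38 (2.46e-04). Against blastocysts 16 rose and 5 fell, led by HK1 at 2.21 (1.34e-05) and pyruvate kinase PKM at 2.84 (1.46e-05); the list's median stood at -0.58, and the split turned to 6 higher and 14 lower under median-of-ratios scaling. In blastocysts against fibroblasts 6 were higher and 16 lower (11 and 10 under that scaling), led by PFKP at -4.15 and PKM at -3.15 (1.01e-05 and 1.40e-05). These 5 named genes kept their direction and their call under each scaling tried.

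Hypoxia-response genes outside glycolysis gave 3 higher and 8 lower of 21 at P10 against fibroblasts, and LOX at -6.01 and P4HA2 at -5.27, both collagen-modifying enzymes, had the smallest adjusted p (4.86e-05 and 3.69e-05). Against blastocysts the deposited values gave 11 higher and 2 lower of the 21, and median-of-ratios scaling gave 4 and 12. The lists that follow were also compared at P10 against fibroblasts. Of 10 tested regulators of glycolysis genes 4 rose and 3 fell. EPAS1, a hypoxia-inducible factor, stood at -5.77 (limma adjusted p = 2.63e-05) and MYC at -3.84 (5.89e-05). HIF1A and MYCN of the same list had higher levels at P10, and were picked out after their values were seen. HIF1A was 86.4 and 96.7 RPKM at P10 against 22.4 and 46.7 in fibroblasts. MYCN was 39.4 and 19.6 RPKM at P10 against 0.0 in both fibroblast lines. Of 15 citric acid cycle genes 1 rose and 6 fell, with IDH3A at -2.67 and IDH2 at 1.62 (1.33e-04 and 3.59e-04). Of 7 pentose phosphate genes TKT alone was called, at 0.40 (0.0266; 0.137 under median-of-ratios scaling). Of 11 nuclear respiratory chain genes 1 rose (ATP5A1, 0.68, 0.00503) and 1 fell (COX6C, -1.10, 0.00629).

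The later libraries ask whether the pathway drifts with passage or differs between the lines. Neither was detected for these genes. The range over the 8 libraries was above the median of all genes for 8 of 9 members, and PFKM, at 0.39 on the log2 scale, was below it. LDHA varied 4.3-fold between its lowest and highest later library, SLC16A3 3.96-fold, SLC2A1 3.43-fold, HK2 3.38-fold, PGK1 2.9-fold and TPI1 2.55-fold. PFKFB3 varied 2.37-fold, GPI 2.01-fold and PFKM 1.32-fold. The median range of the 9 members was 1.53 on the log2 scale, against 0.5 for all 12785 genes tested and 0.42 for those with a mean of at least 10 RPKM. Without line A at P13 and P35 it was 1.05, against 0.34 and 0.28.

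The members went up and down together. All 9 were lowest in line A at P13, where 14.3% of all genes tested had their lowest value. For 6 of 9 the 3 highest libraries were line A at P23, line A at P45 and line B at P46, an order held by 4.4% of all genes. The members' mean log2 level stood -0.83 from its 8-library mean in line A at P13, then 0.46, -0.19 and 0.57 at P23, P35 and P45. In line B it stood at 0.28, -0.25, -0.48 and 0.44 at P12, P24, P35 and P46. This mean did not follow passage order: P23 and P45 of line A were close, and in line B the mean at both P12 and P46 lay above the 2 between them. In line A, P35 was lower than P23 for all 9 members. The same order held for 4048 of all 12785 genes tested and for 22 of 25 hypoxia-response genes outside glycolysis.

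Across the 8 libraries the correlation of a member with the mean of the others was 0.957 to 0.996 (Pearson's r) for 7 members, 0.844 for PFKFB3 and 0.749 for PFKM. Without line A at P13 and P35 the last 2 values were 0.732 and 0.632, and the 7 others stayed between 0.966 and 0.997. The 36 pairs of members had a median r of 0.95. These are descriptions: points of the same library share its depth and scaling, and passages of a line share a culture.

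In the limma fit with line and passage as terms, 0 of 9 members differed between lines. The values of these fits are plain differences of log2(RPKM + 1), with no median gene subtracted. The member changes of line B against line A ran from -0.25 (LDHA) to 0.21 (PFKFB3), with SE of 0.48 and 0.25. The lowest member change moved to -0.70 without line B at P12 and to 0.07 without line A at P23. The median member change, 0.02, moved to -0.52 without both line A at P13 and line A at P35. The smallest adjusted p among members was 0.842, and 0 members had an unadjusted p under 0.05. Of all genes 0.0156% were called, and 5.91% had an unadjusted p under 0.05. With the nearest passages of the lines as a replicate block in place of passage number, 5 genes were called higher in line B against 2, and again 0 members. For the slope per 10 passages, 0 of 9 members were called and 0% of all genes (limma; 3.86% by unadjusted p, 0 of them members). The slopes ran from 0.06 (PFKFB3) to 0.25 (LDHA) with SE of 0.10 and 0.20, and their median was 0.18. That median was 0.03 without line A at P13, the lowest library, and 0.34 without line B at P12. The slopes of the lines differed by -0.51 (SLC16A3) to -0.02 (PFKM), line B minus line A, and 0 of 9 were called, again with 0% of all genes (0.649% by unadjusted p, 0 of them members). The smallest unadjusted p was that of PFKFB3, 0.0546. Without line B at P46 the lowest difference of slopes was -1.02, and without line B at P12 it was -0.20. The median difference of slopes, -0.37, was 0.01 without line A at P13 and also without line B at P12, and -0.63 without line B at P46.

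Genes that followed the members most closely were named by the correlation of their log2 level with the members' mean over the 8 later libraries, among 5056 genes. BNIP3, a mitochondrial protein of mitophagy, had r = 0.995 and ran from 94.3 RPKM in line A at P13 to 507 in line A at P45. FAM162A, a mitochondrial protein, had r = 0.992 and ran from 92.7 to 358 RPKM. AK4, a mitochondrial adenylate kinase, had r = 0.987 and ran from 6.95 to 34.2 RPKM. The next were ALDH3B1 (r = 0.986) and ALDH18A1 (0.984), both named after the aldehyde dehydrogenase family, and the aldo-keto reductase AKR1A1 (0.984). All 6 were lowest in line A at P13, which largely follows from picking them by their fit to a mean that is lowest there. Without line A at P13 and P35 their r was 0.970 to 0.993, in libraries that also served to pick them. The first 3 also stand on the list of hypoxia-response genes, which was chosen with earlier results of these data known.

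On that list of 25 genes, 18 were lowest in line A at P13 and the median log2 range was 1.45, or 0.73 without line A at P13 and P35. ADM, which encodes a vasodilator peptide, ran from 6.13 to 88.5 RPKM and ANKRD37 from 2.37 to 44.8; both were picked out after their values were seen. The mRNA of HIF1A varied little, from 87.7 to 103 RPKM, and its protein was not measured in these data. Of 27 other glycolysis and pyruvate genes 13 were lowest in line A at P13, with a median range of 0.62. Its most abundant genes, PKM (1199 to 1784 RPKM) and LDHB (717 to 1138 RPKM), had no called change in any later fit. PDK1, a kinase that shuts pyruvate out of the citric acid cycle, ran from 11.4 to 34.6 RPKM and was also picked out after its values were seen. Other parts of metabolism had smaller median ranges, 0.29 for citric acid cycle, 0.29 for respiratory chain and 0.24 for pentose phosphate genes. The median range of all genes tested was 0.5. Of these lists, 2 of 14, 3 of 11 and 0 of 6 genes were lowest in line A at P13. Among all genes tested 14.3% were, so these counts alone do not set the lists apart. None of the genes of these lists was called for line, slope or difference of slopes in limma, where 2, 0 and 0 of all genes were. By unadjusted p under 0.05 there were 1, 2 and 0 of 27 other glycolysis genes and 3, 1 and 0 of 25 hypoxia-response genes. Citric acid cycle genes gave 2, 0 and 0 of 14, and the respiratory chain and pentose phosphate genes gave 0 in each fit. Over all genes the shares were 5.91%, 3.86% and 0.649%.

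Marker lists were set beside this pattern. None of 6 pluripotency markers was lowest in line A at P13, and their summed level was 502 to 640 RPKM, highest in line A at P13. SOX2 (205 RPKM), SALL4 (40.4) and OTX2 (115) had their highest later value there. ZIC2 was highest in line B at P35 (146 RPKM), and DNMT3B (150) and UTF1 (20.0) in line A at P35. UTF1 was lower in line A at P13 than in every other later library except line B at P35 (9.88 RPKM). The summed level of the pluripotency markers was 570 RPKM in line A at P35 against 504 at P23. Trophectoderm markers summed to 236 RPKM in line A at P13 and 342 to 790 elsewhere, and their keratins KRT8 (154 to 514 RPKM) and KRT18 (80.9 to 274) were also lowest there; CDX2, a defining trophectoderm factor, was listed at 0 in all 8, and 4 or 5 of the 7 markers were below 1 RPKM. Fibroblast markers summed to 295 RPKM in line A at P13 and 345 in line A at P35, against 214 to 306 in the others. The part of these differences in the members' pattern was not tested.

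Between P10 and the later passages no test was made, because these libraries lie in different file sets, and passage and file set cannot be told apart. Every one of the 9 members had all 8 later libraries above both P10 libraries, which held for 26.4% of 10726 genes with names in both sets (19.1% after median-of-ratios scaling). The later mean of line A exceeded its P10 level by 2.18 for LDHA, 1.95 for HK2, 1.84 for SLC2A1, 1.81 for PGK1 and 1.69 for TPI1 on the log2(RPKM + 1) scale, with no median gene subtracted. For line B these were 3.90, 2.94, 2.02, 2.02 and 2.45. SLC16A3 differed most in line A, by 3.44, and by 3.17 in line B. PFKM differed least, by 0.73 and 0.47, while GPI gave 1.30 and 1.19 and PFKFB3 1.29 and 1.88. The median shared gene stood at 0.12 in line A and 0.05 in line B. PGAM1, a glycolysis gene, was left out of the members by rule because its values lie near the floor in the later file set. It was 283 and 269 RPKM in lines A and B at P10 and 1.23 to 3.07 RPKM in the later libraries. This difference is not read as a change of its level. The part of the file set in such differences was not tested.

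Within enzyme families the members made up different shares of the summed RPKM; these families were chosen after seeing values, and the shares are descriptions. LDHA was 54.6% and 48.2% of LDHA plus LDHB in fibroblasts, 8.4% and 10.2% in blastocysts, 15.5% and 4.5% at P10, and 20.9% to 47.0% in later bESC. HK2 was 80.5% and 88.8% of HK1 plus HK2 in blastocysts, but 7.2% and 15.6% in fibroblasts, 16.4% and 8.9% at P10 and 23.4% to 39.0% later. Blastocysts were thus the only libraries in which HK2 exceeded HK1. PFKM was 13.5% and 14.6% of the 3 phosphofructokinase genes in fibroblasts, 24.4% and 33.6% at P10 and 12.6% to 22.8% later; in the blastocyst pools the 3 genes together summed to 1.48 and 1.62 RPKM. SLC16A3 was at most 2.5% of SLC16A1 plus SLC16A3 in the first set and 13.5% to 34.4% in the later libraries.

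**Figure D3:**
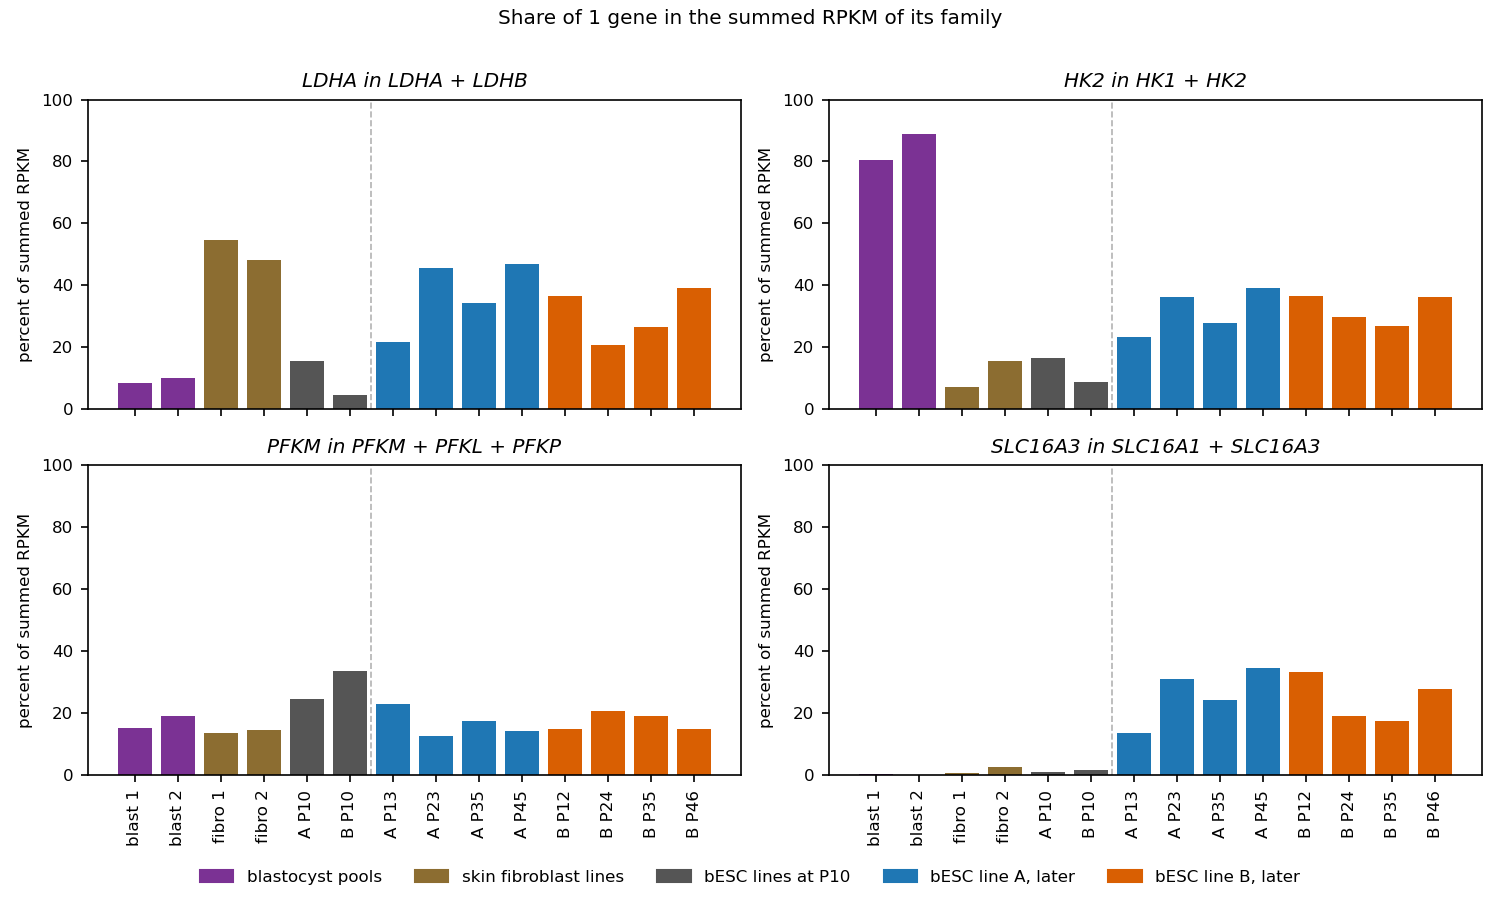
Share of LDHA, HK2, PFKM and SLC16A3 in the summed RPKM of its family (percent, bars from 0), 1 bar per library, with a dashed line between the file sets. HK2 holds 80.5% and 88.8% in the blastocyst pools and at most 39.0% in every other library, and LDHA is highest in the fibroblasts.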

How the data were processed

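The authors deposited 1 file of RPKM values per library, with no read counts; the submitters' processing notes name the build UMD3.1 and the tool edgeR, with roles not given in the sources used here. RPKM values are relative to each library's total, so the abundant blastocyst features lower all others there. In the first set 26 unreadable names, 25 dates and 21 blank values were left out; in the second 26 names were restored. The sets share 18440 usable names. Values were tested as log2(RPKM + 1) with limma 3.58.1 in R 4.3.3 (mean-variance trend, two-sided, Benjamini-Hochberg over all genes with at least 1 RPKM in 2 libraries); the pseudocount understates changes of low genes. The first fit pooled the spread of 3 groups; the second used line and passage. Tests were checked on simulated normal values, independent between libraries and with a common spread for all genes. That check does not cover serial passages, unequal spreads or the abundant blastocyst features. Python 3.11.15 handled the tables (numpy 2.4.6, pandas 2.3.3). A reference symbol table matched 13608 and 14547 names; no coordinates or sequences were used here.

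The members, gene lists, tests and alternatives were chosen with earlier results of these data known. Named are all members, up to 2 genes per other metabolic or regulator list and comparison by smallest adjusted p (highest mean RPKM without a call), and the 6 genes most alike; regulator, citric acid cycle, pentose phosphate, respiratory chain and hypoxia genes are named against fibroblasts only. GAPDH, listed at 0 in all 14 libraries, and PGAM1, near the floor in the later file set only, were left out by rule. Family shares, the range without 2 line A libraries and the fits with a replicate block were added after seeing the data. Deviations from the line means were compared for the nearest passages of lines A and B (P13 and P12, P23 and P24, P35 and P35, P45 and P46). Their correlations across genes were 0.166, 0.101, 0.291 and 0.572, and no other passage pairs were compared. Alternatives covered pseudocount, filters, scalings, shared names, the variance trend, covariates and leaving out libraries.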

Additional observations from a re-analysis of the deposited data

How the results depend on the processing

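The count of members called higher at P10 against fibroblasts, 2, was 1 with a pseudocount of 0.1, with median-of-ratios scaling and with quantile normalization, and 1 to 2 with each library left out. Against blastocysts the count higher, 5, was 3 under each of 3 other scalings. The count lower, 1, was 0 with no filter on low values, 4 with median-of-ratios scaling and 3 with the other 2 scalings, and 0 to 1 with a library left out. Signs turned for HK2 against fibroblasts (-0.08 without fibroblast line 1), and at P10 against blastocysts for PGK1 (0.61 with no filter, 0.06 without line B at P10) and LDHA (-0.01 with the pseudocount of 0.1, -0.46 without line A at P10). With each library left out, HK2 ranged from -0.08 to 1.04, PGK1 from -0.14 to 0.06 and LDHA from -0.46 to 1.5. GPI between blastocysts and fibroblasts turned from -0.05 to 0.40 (pseudocount 0.1; also median-of-ratios), 0.23 (filter of 5 RPKM), 0.30 (quantile) and 0.41 (without the 2 most abundant features), and ranged from -0.28 to 0.14 with a library left out. The causes were not tested. Over all genes, calls lower against fibroblasts fell from 2576 to 1691 without fibroblast line 1, and calls higher from 4160 to 2426 and 2695 without the P10 library of line A and of line B, respectively. Against blastocysts quantile normalization gave 3885 higher and 3346 lower, and calls lower fell from 862 to 489 and 433 without pool 1 and pool 2. Blastocysts against fibroblasts gave 3694 higher and 3897 lower with quantile normalization, 3693 and 4134 without the 2 most abundant features, and 737 higher without pool 2, against 1289. Line calls, 2 in all, ranged from 0 to 5, and slope calls from 0 to 2. The member counts for line, slope and difference of slopes were 0 under every alternative run. Blastocyst pools, fibroblast lines and P10 lines share the letters A and B in their titles, and nothing in the labels ties samples of 1 letter together. Across genes the A minus B differences correlated at 0.187 (fibroblasts and blastocysts), -0.099 (fibroblasts and P10) and -0.079 (blastocysts and P10). With the letter as a replicate block, chosen after seeing the data, members called higher and lower were 2 and 4 against fibroblasts, 5 and 1 against blastocysts, and 2 and 6 between blastocysts and fibroblasts, the counts without it; over all genes 4056 and 2514 were called at P10 against fibroblasts. The block of nearest passages gave 5 line calls over all genes and 0 among members. Where a group kept 1 library, it was assumed to vary like the others. Without read counts, the precision of low values, such as SLC16A3 in the first set, is unknown.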
